A study of Mus musculus with 79 samples.

Results

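The Eya genes (Eya1, Eya2, Eya3 and Eya4) are the mouse relatives of the fly gene eyes absent, and they were read here across dopamine receptor type and brain region. The 4 members were taken by name from a deposited table of 25899 genes. Eya1 was selected on its measured difference between D1 and D2 neurons in these same libraries, so its values in that contrast are a description and carry no test. Eya2, Eya3 and Eya4 were added by family name, to ask whether they follow Eya1.

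Eya proteins are transcriptional co-activators that do not bind DNA on their own. They are carried to their targets by homeodomain proteins of the sine oculis family, and together with Pax and Dach proteins they form a network best known from the development of the eye, ear, kidney and muscle. The conserved Eya domain at the carboxyl end is also a phosphatase of the haloacid dehalogenase type, which acts on tyrosine and uses an aspartate for catalysis. One described substrate is the tyrosine of histone H2A.X that the kinase Baz1b (also called WSTF) phosphorylates. In the striatum, projection neurons with the D1 dopamine receptor form the direct pathway and those with the D2 receptor the indirect pathway.

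The 79 libraries hold mRNA bound to ribosomes, obtained by bacTRAP, in which a bacterial artificial chromosome (BAC) transgene tags the ribosomes of 1 neuron type so that they can be pulled down with the mRNA they carry. The tag, the ribosomal protein L10a fused to eGFP, was driven by the promoter of the D1a or the D2 dopamine receptor gene in heterozygous mice on a C57BL/6J background, with no treatment named in the labels, and age is not among the labels used here. The dorsal striatum was read in 15 D1 and 16 D2 libraries, the ventral striatum, punched from the nucleus accumbens, in 15 D1 and 14 D2 libraries, and dissected prefrontal cortex in 19 D1 libraries. Each library pooled tissue of 3 mice of both sexes, with 2 males in 44 pools and 1 male in 33, and 2 pools incompletely labelled.

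All D1 libraries carry the D1 transgene and all D2 libraries the D2 transgene, so receptor and transgene cannot be told apart. Whether regions were taken from the same mice is not labelled, and p-values measure the spread between pooled libraries. Values are CPM, counts scaled by the authors to a total of 1000000 per library, of which genes held 31.0% to 40.2%. Reads in genes ran from 7.35 M to 30.8 M (M, 1000000) per library, so that 1 read was worth 0.0124 to 0.0466 CPM. Each library name begins with 1 of 4 letter codes (EM in 53 libraries, OdP in 14, BdP in 9, JAG in 3) whose meaning is not stated and which were treated as a possible batch. In the 4 striatal groups the receptor genes followed the labels. Drd1a, the D1 receptor gene, averaged 225 CPM in D1 dorsal and 157 in D1 ventral striatum against 15.2 and 16.8 in the D2 groups. Drd2 averaged 1146 and 656 CPM in the D2 groups against 6.30 and 8.97 in the D1 striatal groups. In prefrontal cortex Drd1a averaged 18.8 ± 8.55 CPM (SD, n = 19), a range that overlapped that of D2 ventral striatum (16.8 ± 6.86, SD, n = 14). Markers of cortical excitatory neurons (5 of 5 detected) summed to a median of 101 CPM in D1 dorsal striatum, 8.17 in D2 dorsal, 66.0 in D1 ventral, 11.3 in D2 ventral striatum and 639 in prefrontal cortex.

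The 4 genes lie on separate chromosomes. In the GENCODE M21 annotation of build GRCm38, Eya1 is on the minus strand of chromosome 1 at 14168954 to 14310235, Eya2 on the plus strand of chromosome 2 at 165595032 to 165771727, Eya3 on the plus strand of chromosome 4 at 132638987 to 132724765, and Eya4 on the minus strand of chromosome 10 at 23102963 to 23350786. Their coding sequences are shown over a stretch of 63 bases around the catalytic aspartate of the Eya domain, because it shows how alike the members are where the phosphatase is encoded and whether a read could fit more than 1 of them. The capitals mark the 15 bases that encode the conserved motif holding this aspartate. They lie in exon 11 of 18 of Eya1 (14229547 to 14229561), exon 9 of 16 of Eya2 (165731568 to 165731582), exon 10 of 17 of Eya3 (132699045 to 132699059) and exon 13 of 20 of Eya4 (23138245 to 23138259), and the sequences are read 5′ to 3′ along the coding strand.
Eya1: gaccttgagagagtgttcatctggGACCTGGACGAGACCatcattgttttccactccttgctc
Eya2: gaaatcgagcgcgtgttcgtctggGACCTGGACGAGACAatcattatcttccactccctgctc
Eya3: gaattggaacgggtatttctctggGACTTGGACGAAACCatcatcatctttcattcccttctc
Eya4: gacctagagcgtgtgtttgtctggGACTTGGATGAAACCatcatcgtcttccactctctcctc
Within this stretch the pairs of members were identical at 45 (Eya1 and Eya3) to 53 (Eya1 and Eya2) of 63 bases. From the motif to the stop codon, which is 795 bases in each, identity between pairs ran from 67.1% (Eya2 and Eya3) to 75.85% (Eya1 and Eya4). No pair shared a run of 50 bases, the read length, in any annotated transcript, and the longest identical run was 29 bases, between Eya2 and Eya3. A full read of one member therefore matched no other member exactly. Against all other annotated genes, only Eya4 shared any stretch of 50 bases, 5 of 9435 (0.053%). No gene listed in the deposited table overlapped a member.

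Eya1 was abundant in D1 neurons of both striatal regions, 7.54 to 9.49 times lower by means in D1 neurons of prefrontal cortex, and lowest in D2 neurons, where each library still held 17 to 911 reads of it. In D1 dorsal striatum the libraries ran from 186 to 317 CPM with a median of 229, and in D1 ventral striatum from 154 to 236 with a median of 183. In prefrontal cortex they ran from 15.3 to 49.5 with a median of 22.4. In D2 ventral striatum they ran from 1.24 to 15.4 with a median of 3.42, and in D2 dorsal striatum from 0.413 to 21.4 with a median of 1.13. The group means were 241 ± 39.0 (SD, n = 15), 191 ± 27.8 (SD, n = 15), 25.4 ± 9.56 (SD, n = 19), 4.60 ± 3.59 (SD, n = 14) and 2.60 ± 5.08 CPM (SD, n = 16) in the same order. No library of any group was at 0 for Eya1.

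**Figure D1:**
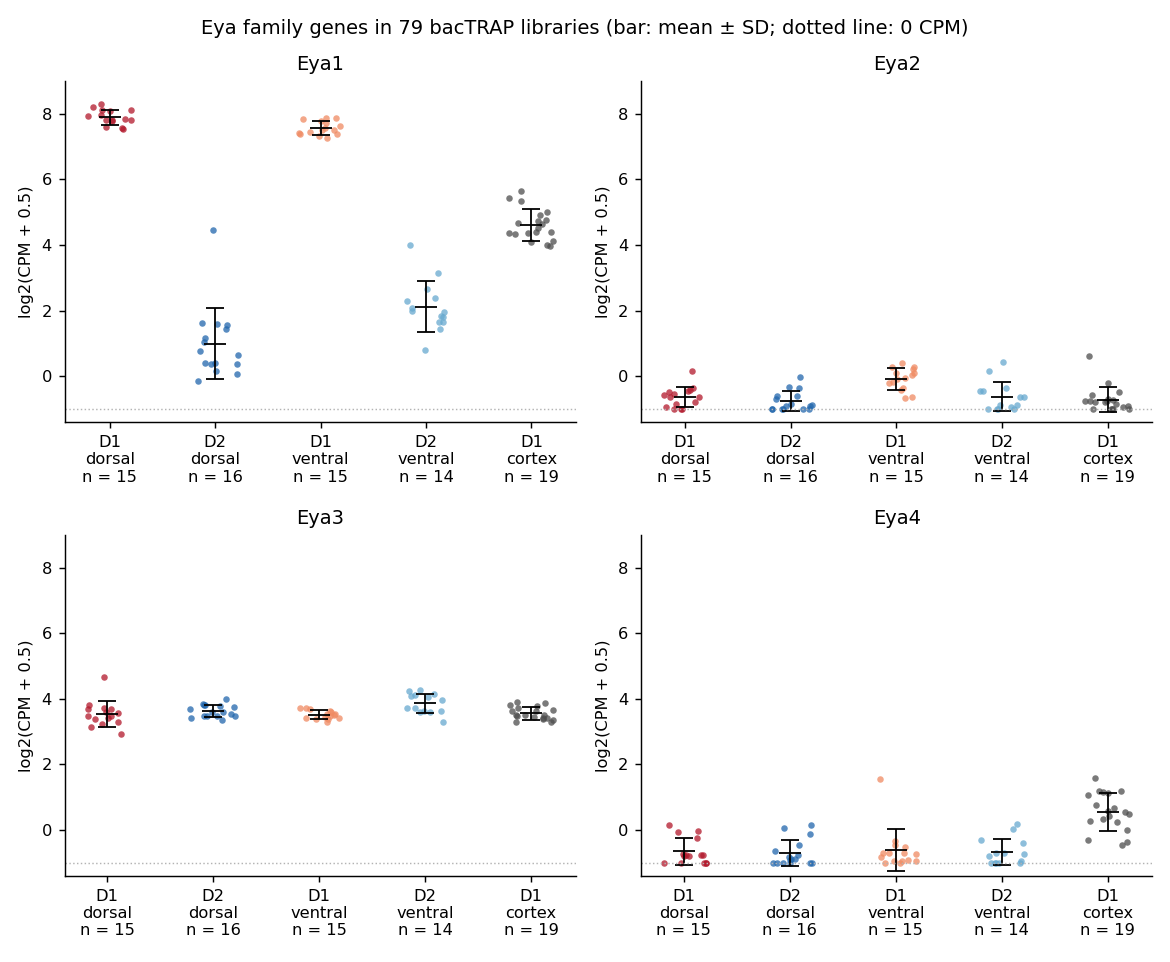
Each point is a library, plotted on a log2(CPM + 0.5) scale for the 4 Eya genes in the 5 groups, with the group mean and SD as bars and 0 CPM as a dotted line. Eya1 spans the panel, from D1 dorsal striatum (mean 241 CPM) to D2 dorsal striatum (2.60 CPM), Eya3 has medians of 10.7 to 13.9 CPM, and Eya2 and Eya4 sit near the dotted line except Eya4 in prefrontal cortex.

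In the D1 against D2 contrast that chose it, Eya1 had the highest D1 minus D2 difference of 11090 genes tested in the dorsal and 11410 in the ventral region, 6.90 and 5.45 on the log2(CPM + 0.5) scale. On the D2 side Drd2 lay farther from 0, at -7.47 and -6.07. Next to Eya1 on the D1 side in both regions came Pdyn, which encodes the opioid peptide precursor prodynorphin, and Drd1a, with log2 differences of 4.22 and 3.98 in dorsal and 4.22 and 3.29 in ventral striatum. The D1 and D2 libraries did not overlap for Eya1 in either region. The share of genes tested without overlap was 1.18% in dorsal and 1.34% in ventral striatum, and since the contrast chose the gene nothing is read from this. The difference was 1.46 larger on the log2 scale in dorsal than in ventral striatum, given without a test for the same reason.

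The ratio of means was 92.7 in dorsal striatum, and 179 without 1 library, D2 dorsal striatum replicate 1. That library had 21.4 CPM of Eya1, while the other 15 had at most 2.59. It was also the highest of its group for Drd1a (40.6 CPM against a median of 11.8 in the others), for Pdyn (4.84 against 1.46) and for cortical excitatory markers (37.1 against 7.36), and the lowest for Penk (1203 against 2207), which encodes the enkephalin precursor of D2 neurons. Other D2 genes lay nearer the medians of the other libraries, with Drd2 at 1048 against 1170, Adora2a at 271 against 243 and Gpr6 at 41.0 against 42.3. In ventral striatum the ratio of means was 41.6, and 50.9 without the highest D2 library, replicate 3, at 15.4 CPM. That library was the highest of its group for Drd1a, at 29.1 CPM against a median of 15.1 in the others. The 2 genes did not always go together, since D2 dorsal striatum replicate 2 had the second highest Drd1a of its group (32.7 CPM) and the lowest Eya1 of all libraries (0.413 CPM). How far mRNA of D1 neurons contributed to Eya1 in D2 libraries was not tested.

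The level of Eya1 was also set against that of Drd1a, as a description, since Eya1 was chosen on its D1 and D2 values. The ratio of Eya1 to Drd1a CPM had a median of 1.08 in D1 dorsal striatum (0.860 to 1.39), 1.16 in D1 ventral striatum (0.986 to 1.61) and 1.39 in prefrontal cortex (0.906 to 2.16). In D2 dorsal striatum its median was 0.0921 (0.0126 to 0.528), and in D2 ventral striatum 0.269 (0.110 to 0.536). The 3 D1 groups overlapped in this ratio, and every D2 library lay below every D1 library. The ratios compare reads of genes that differ in length, so only their differences between groups can be read.

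**Figure D2:**
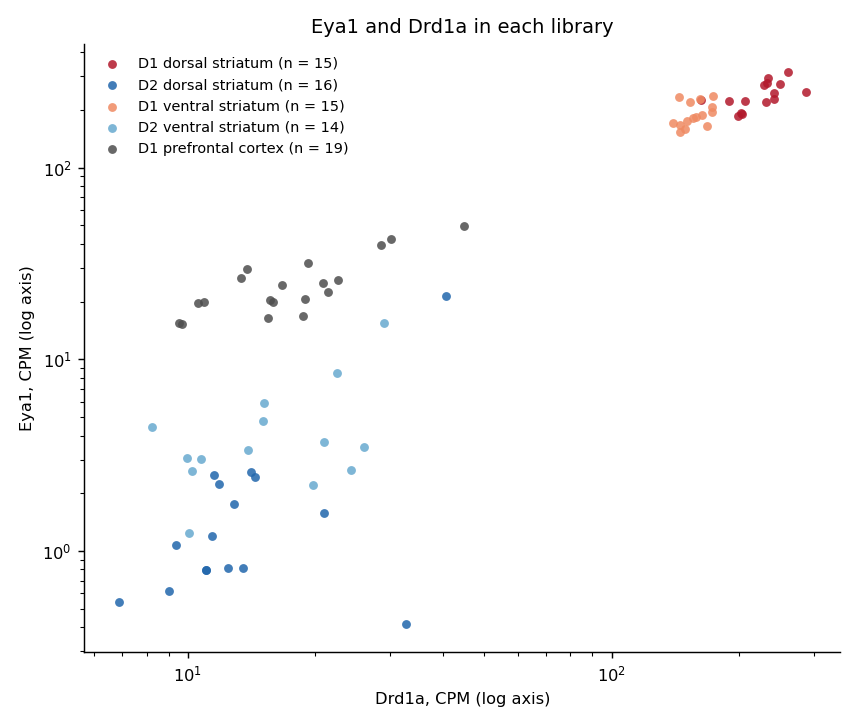
Each point is 1 of 79 libraries, with Drd1a CPM on the horizontal and Eya1 CPM on the vertical axis, both logarithmic, coloured by group. The D1 striatal libraries lie together at the upper right, the D1 cortex libraries lie at 15.3 to 49.5 CPM of Eya1 above the D2 libraries of like Drd1a, and D2 dorsal striatum replicate 1 (21.4 CPM) stands apart from its group.

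The regional contrasts were not the contrast that chose Eya1 and were tested with limma over all genes, called at an adjusted p under 0.05 (Benjamini-Hochberg). They reuse the striatal libraries in which Eya1 was chosen as high in D1 and low in D2. The tests are therefore not independent of that choice. In D1 neurons the dorsal striatum held more Eya1 than the ventral striatum, by 0.33 on the log2 scale (SE 0.08, adjusted p = 0.0022, limma), or 1.26 times by means. The groups overlapped, with 7 of 15 dorsal libraries above every ventral one. In this comparison 34.6% of genes tested were called and 10.1% were called higher in dorsal striatum, and the median gene was at -0.118 on the log2 scale. The split of 1144 higher and 2774 lower calls became 1678 and 1600 with median-ratio scaling and 1745 and 1500 with edgeR. The difference was called under all 11 alternatives run, with values from 0.30 to 0.44.

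In D2 neurons the direction was the opposite, at a low level. Eya1 was lower in dorsal than in ventral D2 libraries by 1.13 on the log2 scale, written as a difference of -1.13 (SE 0.32, adjusted p = 0.0070, limma). The share of genes called was 28.5%, and 20.6% as lower in dorsal striatum, with the median gene again at -0.118. The split of 887 higher and 2302 lower calls became 1353 and 1373 with median-ratio scaling and 1357 and 1325 with edgeR. The group ranges overlapped, from 0.413 to 21.4 CPM in dorsal and 1.24 to 15.4 in ventral libraries, and the ratio of ventral to dorsal means went from 1.77 to 3.42 without D2 dorsal striatum replicate 1. Every ventral library held over 1 CPM, the level asked for by the filter on low values, and several dorsal ones held less. Eya1 therefore passed the filter through the group where it was higher. The call was kept in the limma fit without that filter. It was lost with EM libraries alone (-1.10, adjusted p = 0.137, limma) and with edgeR's quasi-likelihood test on recovered reads (-0.70, adjusted p = 0.276).

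In prefrontal cortex Eya1 was lower than in both striatal regions, with every cortex library below every striatal D1 library. The log2 difference was -3.28 against dorsal striatum (SE 0.13, adjusted p = 9.93e-24, limma) and -2.96 against ventral striatum (SE 0.12, adjusted p = 2.84e-23, limma). These comparisons share the 19 cortex libraries, so they are not independent. Their striatal side is the D1 libraries in which Eya1 was chosen as high. Of the genes tested, 54.8% and 62.8% were called, 22.5% and 35.1% as lower in cortex, and 4.11% and 6.06% were lower without overlap of the groups. Eya1 ranked 50 of 11654 and 68 of 11749 genes from the lowest difference. In these bulk pull-downs, fewer cells with the transcript and less transcript per cell cannot be told apart.

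Within prefrontal cortex the level of Eya1 varied together with several marker sums, those of striatal projection neurons among them. The 5 markers, all detected, summed to 70.9 to 380 CPM in the cortex libraries (median 91.0) and to 1620 to 3266 CPM in D1 dorsal striatum (median 2446). Across the 19 cortex libraries the correlation of Eya1 with this sum on log2 scales was r = 0.86 (rho = 0.64), r = 0.73 without the 2 libraries farthest from the median sum, and r = 0.77 over the 15 EM libraries. With Drd1a it was r = 0.80 (rho = 0.74). With the cortical excitatory sum it was r = 0.52 (rho = 0.70) and r = 0.29 over the EM libraries, with the oligodendrocyte sum r = -0.53 and with the microglia sum r = -0.64. Each is 1 of 20 such measures set beside Eya1 in each group and is given as a description. Replicate 6 was the highest cortex library for Eya1 (49.5 CPM), Drd1a (44.8 CPM) and Six3 (7.48 CPM). The part of striatal tissue in the cortex values was not tested.

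Library name code moved with Eya1 in the D1 groups. In D1 dorsal striatum the 11 EM libraries had a median of 223 CPM and the 4 libraries with other codes 284.5. In ventral striatum the medians were 175 and 231 CPM, and in prefrontal cortex 20.4 (15 EM libraries) and 35.7 (4 others). The differences on the log2 scale were 0.38, 0.38 and 0.65, with adjusted p = 0.0066, 0.0044 and 0.0201 over these 3 two-sided exact permutation tests. Only Eya1 was tested in this way. The share of all genes that differ by name code was not measured, so the difference cannot be called particular to Eya1. Each of the 4 other libraries in each group was a pool with 2 males, as were 5 of 11, 5 of 11 and 5 of 15 EM libraries, and the part of the pool in this difference was not tested. All 4 libraries with other codes lay above every EM library in ventral striatum, 2 of 4 in dorsal striatum and 0 of 4 in cortex. With CPM rescaled to the reads in genes the differences were 0.28, 0.26 and 0.57, with adjusted p = 0.0022, 0.0022 and 0.0382 by the same exact tests. In the D2 groups EM libraries had the higher means, 3.86 against 1.34 CPM for OdP in dorsal and 5.47 against 2.93 in ventral striatum, with medians of 1.20 against 1.13 and 3.59 against 3.04. The regional differences of Eya1 in D1 neurons were as large within EM libraries alone, at 0.33 for dorsal against ventral striatum and -2.99 for cortex against ventral striatum.

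**Figure D3:**
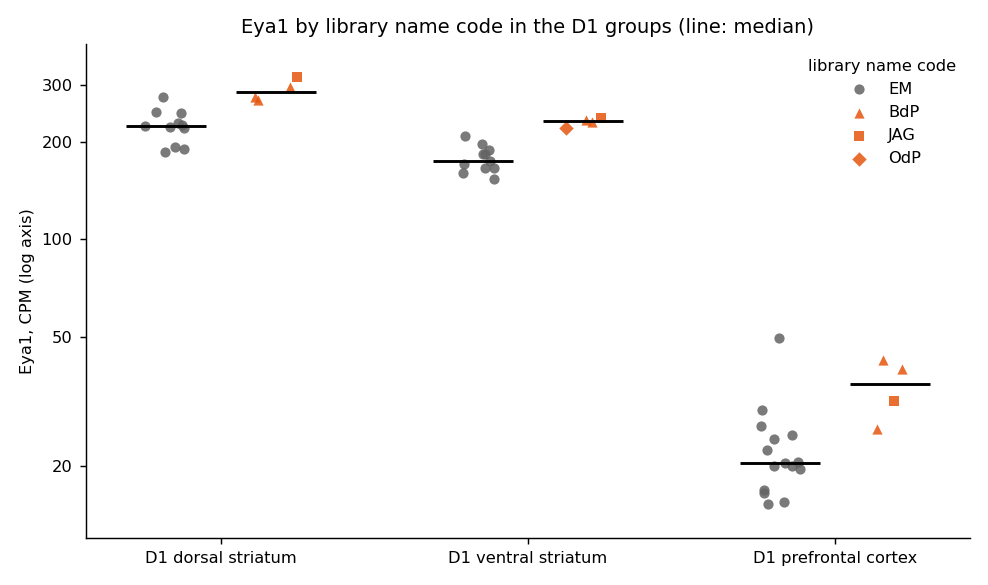
Eya1 CPM on a logarithmic axis in the 3 D1 groups, with EM libraries in grey and libraries of the other name codes in orange, and a line at each median. The orange median lies above the grey one in each group, at 284.5 against 223 CPM in dorsal striatum, 231 against 175 in ventral striatum and 35.7 against 20.4 in prefrontal cortex.

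Eya3 was the member that varied least between groups, with medians from 10.7 to 13.9 CPM. The libraries ran from 7.11 to 24.8 CPM with a median of 10.7 in D1 dorsal striatum, from 9.62 to 15.5 with a median of 11.6 in D2 dorsal striatum, and from 9.35 to 12.8 with a median of 10.9 in D1 ventral striatum. In D2 ventral striatum they ran from 9.39 to 18.7 with a median of 13.9, and in prefrontal cortex from 9.22 to 14.6 with a median of 10.8. All 5 ranges overlapped. The highest value, 24.8 CPM, was that of D1 dorsal striatum replicate 13, which had the lowest striatal projection neuron marker sum of its group (1620 CPM against a median of 2543 in the others), while the other 14 libraries of the group were at most 13.4. Replicate 13 also had the highest percentage of reads falling in genes of its group, 40.0% beside a group mean of 35.4%.

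Eya3 did not follow Eya1. In dorsal striatum the D1 minus D2 difference was -0.08 on the log2 scale (SE 0.11, adjusted p = 0.602, limma), where 25.9% of all genes tested were called. In ventral striatum Eya3 was lower in D1 than in D2 libraries, by -0.34 (SE 0.10, adjusted p = 0.0036, limma), which is opposite in sign to Eya1 and 1.30 times by means. In that comparison 47.7% of genes were called, 23.6% as lower in D1, so that a call was common. When the percentage of reads falling in genes was added to the fit, the value was -0.22 and no longer called (adjusted p = 0.281, limma). The D1 minus D2 difference of Eya3 did not differ by region beyond the threshold, at 0.26 (SE 0.14, adjusted p = 0.402, limma), where 2.64% of genes were called.

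By region Eya3 gave small values. Dorsal minus ventral striatum was 0.02 in D1 neurons (SE 0.11, adjusted p = 0.890, limma). In D2 neurons it was -0.24 (SE 0.10, adjusted p = 0.0803, limma), and it passed the threshold with name code as a covariate (-0.28, adjusted p = 0.0223, limma) or without the library farthest from its group's median (-0.28, adjusted p = 0.0324, limma). It was -0.12 with median-ratio scaling (adjusted p = 0.444, limma) and -0.13 with edgeR (adjusted p = 0.412), in a comparison whose median gene was at -0.118 as deposited. Cortex minus dorsal striatum was 0.02 (SE 0.10, adjusted p = 0.911, limma), and cortex minus ventral striatum 0.04 (SE 0.07, adjusted p = 0.626, limma). A p above the threshold does not show that levels are equal.

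**Figure D4:**
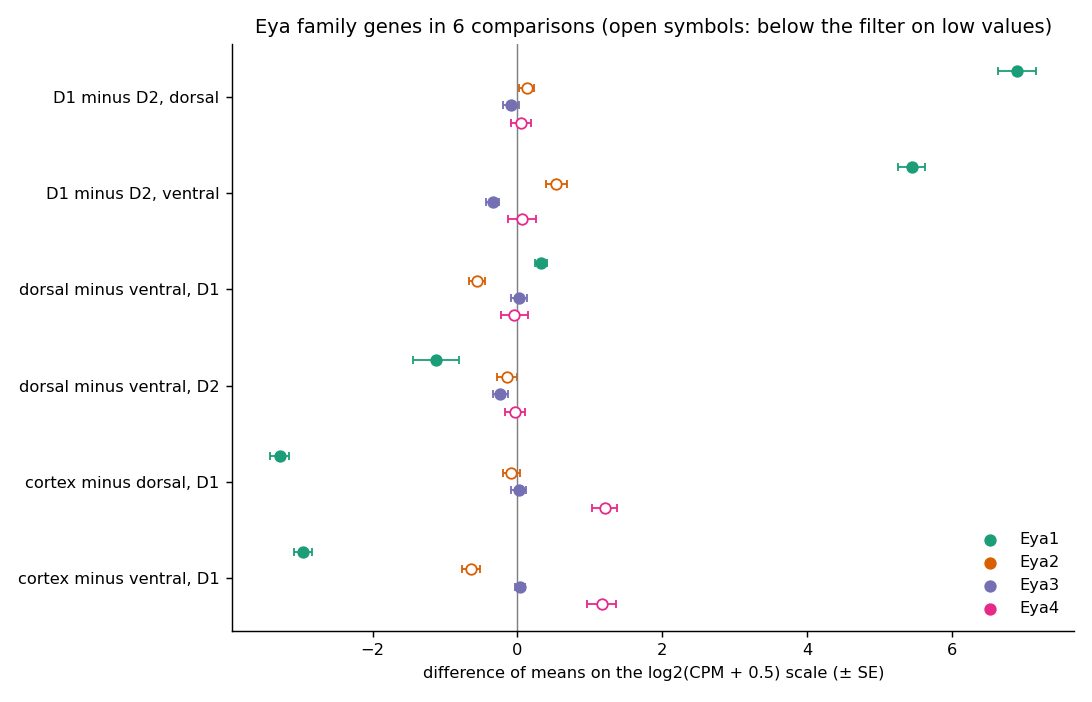
Log2 differences of means (points) with SE (bars) of the 4 members in the 6 comparisons of groups, with open symbols for Eya2 and Eya4, which did not pass the filter on low values. Eya1 moves by 6.90 and 5.45 between D1 and D2 and by -3.28 and -2.96 in cortex, Eya3 lies between -0.34 and 0.04, and Eya4 is higher in cortex, at 1.20 and 1.16.

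Eya2 was at the limit of detection and did not pass the filter, which asked for at least 1 CPM in a number of libraries equal to the smaller group's n. In D1 dorsal striatum it ran from 0 to 0.612 CPM (median 0.151), in D2 dorsal striatum from 0 to 0.476 (median 0.0372), and in D1 ventral striatum from 0.135 to 0.836 (median 0.461). In D2 ventral striatum it ran from 0 to 0.843 CPM (median 0.0972) and in prefrontal cortex from 0 to 1.02 (median 0.0828). D1 ventral striatum was the 1 group in which every library held reads of Eya2, 5 to 36 of them, while 3, 6, 4 and 5 libraries were at 0 in D1 dorsal, D2 dorsal, D2 ventral striatum and cortex. A count of 0 allows up to 3 reads, or 0.0373 to 0.140 CPM depending on the library, counting error only.

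Fitted without the filter, Eya2 was higher in D1 than in D2 ventral striatum by 0.54 on the log2 scale (SE 0.14, adjusted p = 0.0043, limma), with 29.9% of genes called. With edgeR on recovered reads the value was 1.32 and was not called (adjusted p = 0.0749), while 34.1% of genes were. In dorsal striatum the D1 minus D2 difference was 0.13 (SE 0.11, adjusted p = 0.464, limma), with 17.2% of genes called. Between D1 regions Eya2 was lower in dorsal than in ventral striatum (-0.56, SE 0.11, adjusted p = 4.2e-04, limma, 22.8% of genes called, and -1.44, adjusted p = 0.0194, with edgeR, 22.0% called). It was lower in cortex than in ventral striatum too (-0.64, SE 0.12, adjusted p = 2.8e-05, limma, 47.0% of genes called, and -1.77, adjusted p = 0.0026, with edgeR, 52.8% called). Between cortex and dorsal striatum the difference was -0.08 (adjusted p = 0.601, limma), and between the D2 regions -0.14 (adjusted p = 0.525, limma, 18.6% called). The receptor difference of Eya2 did not depend on region beyond the threshold (-0.41, adjusted p = 0.313, limma, where 1.51% of genes were called). The direction of Eya2 in ventral striatum was that of Eya1, but its mean of 0.470 ± 0.212 CPM (SD, n = 15) in D1 ventral striatum rests on a median of 24 reads.

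Eya4 was likewise near 0 in the striatum and was highest in prefrontal cortex. It ran from 0 to 0.613 CPM in D1 dorsal (median 0.0845), from 0 to 0.619 in D2 dorsal (median 0.0424), from 0 to 2.46 in D1 ventral (median 0.0962) and from 0 to 0.637 in D2 ventral striatum (median 0.0896). In cortex it ran from 0.227 to 2.48 CPM (median 0.954), with reads in every library and at least 1 CPM in 9 of 19. The 4 striatal groups overlapped, and 15 of 19 cortex libraries lay above every D1 dorsal striatum library. A single library, D1 ventral striatum replicate 15, held the 2.46 CPM (141 reads), and the next in its group was at 0.287. It was the only D1 ventral striatum library with the code OdP. It was the highest of its group for GABA interneuron markers, at 45.4 CPM against a median of 27.6 in the others, but the next library was at 44.1. For cholinergic interneuron and microglia markers it was the lowest of its group.

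Without the filter, Eya4 was higher in cortex than in D1 dorsal striatum by 1.20 on the log2 scale (SE 0.17, adjusted p = 2.7e-07, limma, 41.9% of genes called) and than in D1 ventral striatum by 1.16 (SE 0.20, adjusted p = 8.9e-06, limma). The mean in cortex was 6.69 and 4.28 times those in dorsal and ventral striatum, and 11.5 times the ventral mean without D1 ventral striatum replicate 15. With edgeR the values were 2.59 (adjusted p = 2.6e-05, 48.3% of genes called) and 2.08 (adjusted p = 8.2e-04). This direction was opposite to that of Eya1 in the same libraries. Between the D1 regions Eya4 gave -0.04 (adjusted p = 0.899, limma) and between the D2 regions -0.03 (adjusted p = 0.889, limma). Between D1 and D2 libraries it gave 0.05 in dorsal (adjusted p = 0.824, limma) and 0.06 in ventral striatum (adjusted p = 0.843, limma), and its sign in ventral striatum turned to -0.10 without replicate 15.

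Within prefrontal cortex Eya4 was lower where Eya1 was higher (r = -0.52, rho = -0.59 over 19 libraries), and r was -0.61 with Drd1a, 0.65 with the oligodendrocyte marker sum, 0.59 with the microglia sum and -0.29 with the cortical excitatory sum. In D1 dorsal striatum (n = 15) its r was 0.60 with the cortical excitatory sum and -0.09 with the oligodendrocyte sum. Marker genes called higher in cortex than in dorsal striatum, as Eya4 was, were 5 of 5 cortical excitatory, 6 of 6 GABA interneuron and 5 of 5 astrocyte genes, beside 32.3% of all genes. Of 3 oligodendrocyte genes tested, 0 were higher and 2 lower. The part of these cell types in Eya4 was not tested. These are descriptions over libraries that share name codes, and they rest on few reads, 8 to 171 of Eya4 a library in cortex and 0 to 28 in D1 dorsal striatum.

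Compared per kb of merged exon (7.81 kb for Eya1, 2.96 kb for Eya2, 5.65 kb for Eya3 and 9.42 kb for Eya4), the leading member changed with the neuron type. Eya1 was chosen on its D1 and D2 values, so this change between D1 and D2 groups is a description. Eya1 averaged 30.8 CPM per kb in D1 dorsal and 24.5 in D1 ventral striatum, against 2.05 and 1.95 for Eya3. It was the highest member in all 30 of these libraries and made up 93.5% ± 1.91 (SD, n = 15) and 91.9% ± 1.33 (SD, n = 15) of the summed family level. In cortex Eya1 averaged 3.25 and Eya3 2.01 CPM per kb, and Eya1 led in 18 of 19 libraries with a share of 58.3% ± 9.25 (SD, n = 19). In D2 neurons Eya3 led, in 15 of 16 dorsal libraries and 14 of 14 ventral ones, with 2.11 and 2.53 CPM per kb and shares of 87.9% ± 12.5 (SD, n = 16) and 79.5% ± 12.8 (SD, n = 14). Per kb of the longest protein-coding transcript, Eya1 led in all 19 cortex libraries and Eya3 in 13 of 14 D2 ventral ones. Eya2 and Eya4 together were a small part throughout, Eya4 reaching 2.31% ± 1.58 in cortex (SD, n = 19).

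**Figure D5:**
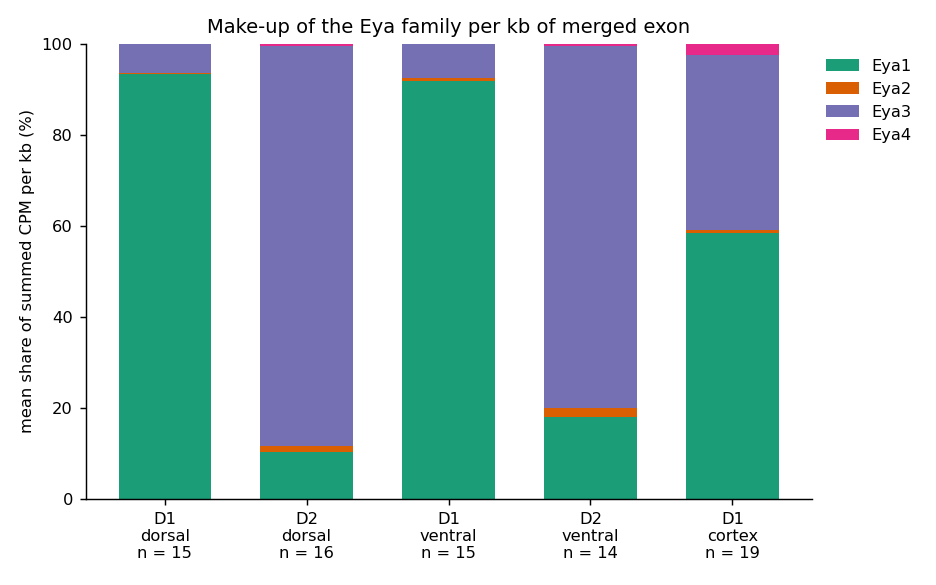
Stacked bars show the mean share of each member in the summed CPM per kb of merged exon, by group, from 0 to 100%. Eya1 fills 93.5% and 91.9% in the D1 striatal groups and 58.3% in cortex, while Eya3 fills 87.9% and 79.5% in the D2 groups. The D1 against D2 change is a description, since Eya1 was chosen on those values.

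Of the genes of the Eya network, Six3 and Dach1 were lower in D1 than in D2 neurons, unlike Eya1, and were lower in cortex than in striatum, like Eya1, while Pax6 was higher in cortex than in dorsal striatum. Six3 passed the filter, as did Dach1 of 2 Dach genes and Pax6 of 9 Pax genes. Six3, a homeodomain factor of the sine oculis family that is not an established partner of Eya proteins, averaged 59.4 ± 14.9 CPM (SD, n = 15) in D1 dorsal and 60.3 ± 16.7 (SD, n = 15) in D1 ventral striatum. In D2 neurons it averaged 105 ± 21.4 (SD, n = 16) and 107 ± 23.9 (SD, n = 14), so it was lower where Eya1 was higher, by -0.83 (SE 0.12, adjusted p = 7.6e-07, limma) and -0.84 (SE 0.12, adjusted p = 1.2e-06, limma). In cortex Six3 averaged 1.70 CPM (median 0.417), with log2 differences of -5.45 (SE 0.33, adjusted p = 1.0e-17, limma) and -5.47 (SE 0.33, adjusted p = 4.6e-18, limma) against D1 dorsal and ventral striatum and no overlap. Six4, below the filter, had a mean in cortex of 0.876 ± 0.286 CPM (SD, n = 19) against 0.215 in D1 dorsal and 0.0857 in D1 ventral striatum.

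Dach1, a co-repressor in the network, was lower in D1 than in D2 neurons in both regions, by -0.33 in dorsal (SE 0.08, adjusted p = 0.0022, limma) and -1.15 in ventral striatum (SE 0.12, adjusted p = 1.4e-09, limma). It averaged 27.8, 35.3, 9.49 and 21.9 CPM in D1 dorsal, D2 dorsal, D1 ventral and D2 ventral striatum and 1.46 in cortex. Dach1 was higher in dorsal striatum in both neuron types, by 1.51 and 0.70. Pax6, a paired-box factor of eye and forebrain, did not pass in dorsal striatum (0.04, adjusted p = 0.820, limma) and was lower in D1 in ventral striatum (-0.50, adjusted p = 3.4e-04, limma). In cortex it was higher than in D1 dorsal striatum (0.30, adjusted p = 0.0038, limma), and against D1 ventral striatum its difference was -0.05 (adjusted p = 0.635, limma).

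A list was made of 10 genes described elsewhere as partners or substrates of Eya proteins or, for Sobp, as binding sine oculis family proteins. Of these 10, 7 were tested. In the D1 against D2 comparison of dorsal striatum 4 were called higher, 2 lower and 1 was not called, where 25.9% of all genes were called. Those higher in D1 were Gnaz (0.78) and Gnai2 (0.79), which encode G protein alpha subunits that bind Eya2, H2afx (0.47), the histone H2A.X gene, and Sobp (0.48), a Six-binding protein gene. The lower ones were Ppp2r2a (-0.43), a regulatory subunit of phosphatase PP2A that binds Eya3, and Myc (-1.19). The median of the 7 was 0.47 beside 0.016 over all genes. Gnaz had the clearest separation, at 47.1 to 95.9 CPM in D1 and 30.0 to 52.4 in D2 libraries, with 14 of 15 D1 libraries above every D2 one.

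In ventral striatum 3 were higher in D1 (Gnaz 0.52, Gnai2 0.65, H2afx 0.59), 2 lower (Ppp2r2a -0.55, Myc -0.71) and 2 not called, Sobp (0.24) and Baz1b (0.14), where 47.7% of all genes were called. Between cortex and dorsal striatum 4 of 7 were higher in cortex and 2 lower, beside 54.8% of all genes called. Higher were Sobp (2.04, from a mean of 21.9 to 90.4 CPM), Gnai2 (1.21), Myc (0.41) and Gnaz (0.34). Lower were Ppp2r2a (-1.05) and H2afx (-0.75). Between cortex and ventral striatum 2 were higher, 3 lower and 2 not called, beside 62.8% of all genes called. Between dorsal and ventral striatum 1 was higher and 2 lower in D1 neurons, and 0 higher and 2 lower in D2 neurons, beside 34.6% and 28.5% of all genes called, with Gnai2 lower in dorsal striatum in both (-1.26 and -1.39). None of the 7 differed between receptors by region in the interaction fit (limma, adjusted p under 0.05, where 2.64% of genes were called).

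Over the 79 libraries the genes whose log2 level was most like that of Eya1 were Sfxn1 (r = 0.95), Cntnap3 (r = 0.93), Chrm4 (r = 0.93) and Drd1a (r = 0.90), of 12333 genes compared. Eya2 ranked 1616 (r = 0.36), Eya4 ranked 6297 (r = 0.04) and Eya3 ranked 10682 (r = -0.32). These correlations follow mainly the 5 groups, which the points share. Sfxn1 averaged 159 CPM in D1 dorsal, 16.8 in D2 dorsal, 126 in D1 ventral, 18.5 in D2 ventral striatum and 72.1 in cortex, and in RefSeq gene order it is the gene next to Drd1, 16 kb away. Whether it lies on the D1 transgene is not given in the sources used here. Chrm4, which encodes the M4 muscarinic receptor, averaged 21.3, 1.63, 12.5, 1.47 and 3.51 CPM in the same groups.

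With the group means removed, the genes most like Eya1 were Drd1a (r = 0.57), Slc35d3 (r = 0.55), Ebf1 (r = 0.46), Pdyn (r = 0.42) and Rraga (r = 0.40). Within single groups r ran from 0.42 to 0.80 with Drd1a and from 0.06 (D1 dorsal striatum) to 0.58 (D2 ventral striatum) with Pdyn. Without the 2 libraries farthest from the group's median of the other gene, it ran from 0.25 to 0.79 with Drd1a. With Pdyn it then ran from -0.15 (D2 dorsal striatum) to 0.49 (D2 ventral striatum). Ebf1, a transcription factor of D1 striatal neurons, averaged 30.7 CPM in D1 dorsal and 12.4 in D1 ventral striatum, against 1.74 and 2.26 in D2 neurons and 0.539 in cortex. Over all libraries with the group means removed, r with Eya1 was 0.14 for Eya2, 0.02 for Eya4 and -0.15 for Eya3. Within single groups r differed in sign. With Eya4 it was -0.64 in D1 dorsal striatum, 0.55 in D2 dorsal striatum and -0.52 in cortex, and with Eya2 -0.45 in both D1 striatal groups and 0.54 in D2 ventral striatum, all over few reads of Eya2 and Eya4.

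The neighbours of Eya1 on chromosome 1 did not reach its level. Of the 3 genes on each side in RefSeq order, 2 were analysed, Msc and Gm9947, 442 and 445 kb away. Msc averaged 0.307 CPM in D1 dorsal, 0.0187 in D2 dorsal, 0.288 in D1 ventral, 0.206 in D2 ventral striatum and 0.40 in cortex. Gm9947, a long non-coding RNA gene, averaged 0.134, 0.00147, 0.0913, 0.00460 and 0.146 CPM in the same order. Neither passed the filter. Fitted without it, where 17.2% of all genes were called in dorsal and 29.9% in ventral striatum, Gm9947 was higher in D1 than in D2 libraries in dorsal (0.29, adjusted p = 0.0210, limma) and ventral striatum (0.22, adjusted p = 5.4e-04, limma), and Msc in dorsal striatum (0.58, adjusted p = 5.5e-04, limma) but not in ventral striatum (0.31, adjusted p = 0.188, limma). Gm9947 was above 0 in 14 of 15 D1 and 1 of 16 D2 dorsal libraries, and Msc in 13 of 15 and 3 of 16. Around Eya2 and Eya3, 10 of 12 neighbours were analysed and 5 passed the filter in dorsal and 6 in ventral striatum. Of these 0 were called between D1 and D2 in either region by limma, beside 25.9% and 47.7% of all genes, the lowest adjusted p being 0.0596 for Dnajc8 in dorsal and 0.0614 for Rpa2 in ventral striatum. They include Zmynd8, 12.4 kb from Eya2 and at 39.7 to 51.6 CPM on average, and Xkr8, 0.136 kb from Eya3 and at 0.653 to 1.57 CPM. The 6 neighbours of Eya4 were not analysed here.

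The genes whose levels followed the other members were different ones. For Eya3 they were led by Ubl4 (r = 0.68), Gm14168 (r = 0.65) and Ccdc125 (r = 0.64). For Eya4 they were led by Car4 (r = 0.80), Tmem232 (r = 0.79) and Efcab6 (r = 0.79), and for Eya2 by Ano7 (r = 0.62) and Rgag1 (r = 0.59), over the same 79 libraries. For Eya2 and Eya4 these rest on few reads.

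No member was called between pools with 2 males and pools with 1. The difference was 0.25 for Eya1 (SE 0.14, adjusted p = 0.440, limma) and -0.10 for Eya3 (SE 0.06, adjusted p = 0.475, limma), where 0.0651% of genes were called. Without the filter it was -0.04 for Eya2 (adjusted p = 0.894, limma) and 0.03 for Eya4 (adjusted p = 0.937, limma). The 8 genes called of all became 225 with EM libraries alone and 215 with name code as a covariate.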

How the data were processed

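Paired reads of 50 bases came from amplified cDNA, per the labels' protocols. The submitters' processing notes name Trim Galore 0.4.2, cutadapt 1.9.1, FastQC, HISAT2 and build GRCm38. The counting program and annotation are not given in the sources used here. The authors deposited CPM values, and all 79 columns matched a sample by name (0 unmatched). Every value was a whole multiple of 1 step per column, so whole reads were recovered for 100% of values above 0 (within 0.01 reads) and used with edgeR 4.0.16 as an alternative. The columns sum to 31.0% to 40.2% of 1000000, so the scaling total held more than the reads in genes.

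Comparisons used limma 3.58.1 (R 4.3.3) on log2(CPM + 0.5), two-sided, with Benjamini-Hochberg adjustment over all genes that reached 1 CPM in a number of libraries equal to the smaller group's n. This scale understates changes of low genes. Only the compared groups entered a fit. Fits were tested on simulated data. Replicate numbers follow accession order and pair nothing.

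All 4 members were named, with the genes of the network lists (sine oculis family, Dach, Pax), the partner list, each member's neighbours and the 5 most correlated genes, some of which are not reported here. The members and lists were chosen with earlier results of these data known. Summed over each list in the 5 groups, the median marker levels ran as follows. Astrocyte markers were at 4.04 to 25.1 CPM, oligodendrocyte markers at 39.6 to 109, precursors at 0.700 to 4.82, microglia at 2.08 to 2.59, endothelium at 0.0400 to 0.340, choroid plexus and ependyma at 0.358 to 7.98, GABA interneurons at 14.1 to 164 and cholinergic interneurons at 0.249 to 12.2 CPM. Reads carried no molecular identifiers, so read counts bound counting error only.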

Additional observations from a re-analysis of the deposited data

Results flagged for a closer look

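Of 3 genes of the Eya network that were tested (Six3, Dach1 and Pax6), 2 differed between dorsal and ventral striatum in their D1 minus D2 difference by the interaction term, where 2.64% of all genes were called. The same rule also covered the 7 genes tested of the partner list and Eya3, and none of those was called. For Dach1 the difference was 0.811 higher in dorsal striatum on the log2 scale (SE 0.138, adjusted p = 6.53e-05, limma), with D1 minus D2 at -0.33 there and -1.15 in ventral striatum. For Pax6 it was 0.544 higher (SE 0.161, adjusted p = 0.0475, limma), with 0.04 in dorsal and -0.50 in ventral striatum. Without the filter on low values Pax6 was not called (adjusted p = 0.0558, limma, and 0.108 with edgeR's quasi-likelihood test), while Dach1 was.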

How the results depend on the processing

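Under the alternatives run, 219 values of the members' differences kept their direction and, where tested, their side of the threshold, 18 turned sign, 5 lost a call and 2 gained one; the cause was not tested. The no-filter settings with EM libraries alone, name code or a library left out, and edgeR without the filter, were chosen after seeing the data. Eya1 between D2 regions lost its call with EM libraries alone (-1.10) and with edgeR (-0.70, and -0.71 without the filter). Eya2 between receptors in ventral striatum lost its call with edgeR (1.32). Eya3 in the same comparison lost it with the percentage of reads in genes (-0.22), and between D2 regions gained it with name code (-0.28) or without the farthest library (-0.28). Sign changes were all in values near 0 that were not called. For Eya3 they were 0.0082 between receptors in dorsal striatum (percentage in genes), -0.056 between D1 regions (without the farthest library), and in cortex minus dorsal striatum -0.053 (EM alone), -0.019 (median-ratio scaling), -0.11 and -0.12 (edgeR with and without filter) and -0.019 (males). For Eya4 they were -0.24 and -0.10 between receptors in ventral striatum (EM alone, without the farthest library), 0.21, 0.13 and 0.11 between D1 regions (EM alone, name code, without the farthest library) and 0.29, 0.038 and 0.15 in the interaction in the same order, and 0.019 between D2 regions (edgeR, no filter). For males they were 0.11 (Eya2, EM alone) and -0.018 (Eya4, without the farthest library). EdgeR without the filter gave larger values of the sparse members, for Eya2 0.61, 1.32, -1.44, -0.72 and -1.77 (receptors dorsal and ventral, D1 and D2 regions, cortex minus ventral striatum), and for Eya4 0.79, 2.59, 2.08 and -0.54 (receptors ventral, cortex minus dorsal, cortex minus ventral striatum, interaction).

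Counts of all genes called moved by over 1.5 times in 10 alternatives and stayed within that in 65. Between receptors in dorsal striatum 2871 became 1389 (EM alone) and 1658 (name code), and in ventral striatum 5443 became 1218 (percentage in genes). Between D2 regions 3189 became 2074 (OdP alone), and between cortex and dorsal striatum 6388 became 9639 (edgeR, no filter). The interaction's 313 became 480 (name code) and 601 (edgeR, no filter). For males 8 became 225 (EM alone), 215 (name code) and 0 (limma, no filter, where 2061 had an unadjusted p under 0.05). EdgeR without the filter called 112 for males and is not counted among these alternatives. No paired analysis was run, because the labels do not say which libraries share mice, and replicate numbers only follow accession order. Of higher against lower calls, the split between receptors went from 1424 and 1447 to 1709 and 1154 in dorsal and from 2751 and 2692 to 3698 and 1895 in ventral striatum when scaled to the reads in genes, and between cortex and dorsal striatum from 3766 and 2622 to 3119 and 3472 with edgeR. Eya2 and Eya4 were each at 0 in 18 libraries, and whether this follows depth was not tested.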
